A study of Mus musculus with 6 samples.

Results

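The genes described here encode potassium channels: 47 genes, chosen by name, that cover most families of pore-forming subunits and 2 cytoplasmic beta subunits. They were measured in the primary somatosensory cortex of C57BL/6 mice at postnatal day 7. All 47 names were present on the array, on 67 probes, and all 47 passed the filter on dim signal, out of 32697 genes tested. Each of the 67 probes was well above background on all 6 arrays.

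Both groups carried floxed Lhx2 alleles. The 3 control samples were Lhx2f/f without Cre (the labels also call them wild type), and the 3 samples labelled cKO were Lhx2f/f;Nex-Cre. Lhx2 is a LIM-homeodomain transcription factor of the developing cortex. The Nex (Neurod6) promoter drives Cre in newly born excitatory cells of cortex and hippocampus, while glia, vessels and interneurons, which the dissected tissue also holds, are not of that lineage. Each sample was hybridised in a single colour (Cy3) to a 1-colour Agilent mouse array, from 0.2 µg of total RNA. Whether each sample is a separate animal or a pool is not stated in the labels, so a p-value here reflects the spread among these samples alone, and that spread may be technical. In RNA from whole tissue, fewer cells of a type and less RNA per cell cannot be told apart.

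Potassium channels let potassium flow along its gradient and so set the resting potential, the repolarisation of the action potential and the pattern of firing. Voltage-gated subunits (Shaker, Shab, Shaw, Shal, EAG and KCNQ types) open on depolarisation, inward rectifiers and tandem-pore channels carry current near rest, and other channels open on internal calcium or sodium. In the cortex their expression is still maturing in the first postnatal weeks, and some members mark glia: Kcnj10 and Kcnj16 supply the inward rectifier of astrocytes, through which they take up potassium released by neurons.

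Array-wide signal measures were similar across the 6 arrays. The 75th percentile of signal intensity was 889 to 1064 across arrays, and 86.7 to 91.1% of spots were well above background. With 3 arrays per group, the number of arrays limits the precision. The probe for Lhx2 (chromosome 2, 38224933 to 38224992, mm9) read 3.49, 3.51 and 3.44 in control replicates 1 to 3, and 4.43, 4.55 and 4.78 in the arrays labelled cKO, on the log2 scale relative to each array's 75th percentile that is used throughout. It was thus higher in the arrays labelled cKO, by 1.1 (SE 0.11, limma adjusted p = 0.074). The labels do not name the floxed exons, so whether this probe can check the genotype is not known. Neurod6, the gene whose promoter names the Cre driver, read 2.14, 2.01 and 2.24 in the controls and 2.73, 2.37 and 2.41 in the arrays labelled cKO, with no overlap, a difference of 0.38 (SE 0.13, limma adjusted p = 0.53). The arrays are called by their labels throughout. An exchange of the group labels was not tested, and with exchanged labels every direction given here would turn. Y-linked probes gave signal in control replicates 1 and 3 and not in the other 4 arrays. All 6 arrays were on 1 slide.

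No potassium channel gene differed between the groups at an adjusted p of 0.05. By limma with Benjamini-Hochberg adjustment over all 32697 genes, 0 of 47 passed, with the smallest adjusted p at 0.18, against 0.00612% of all genes (2 genes). By sign, 23 members were higher in the arrays labelled cKO and 24 were lower. The median difference was -0.01 on the log2 scale, with a range from -0.49 to 0.57, and the median over all genes tested was 0.02. Leaving out each array in turn gave member medians from -0.079 to 0.051.

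At an unadjusted p of 0.05, 3 members were higher (6.38%), Kcna3, Kcnd3 and Kcnj2, against 3.21% of all genes. On the lower side there were also 3 (6.38%), Kcng2, Kcnj3 and Kcnt1, against 4.34% of all genes. This count of 6 depended on the arrays used. It was 3, 3 and 13 without control replicates 1, 2 and 3, and 10, 5 and 4 without cKO replicates 1, 2 and 3. The share of all genes was not counted for these omissions, so the counts cannot be set against a background. The groups did not overlap in 4 members with higher signal (8.51%), Kcna3, Kcnd3, Kcnh4 and Kcnj2, where 7.15% of all genes did the same. In 3 members with lower signal (6.38%), Kcnh7, Kcnj3 and Kcnt1, the groups did not overlap either, against 6.19% of all genes. These shares lie near the background, apart from the unadjusted share of higher genes, which rests on 3 genes.

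**Figure D1:**
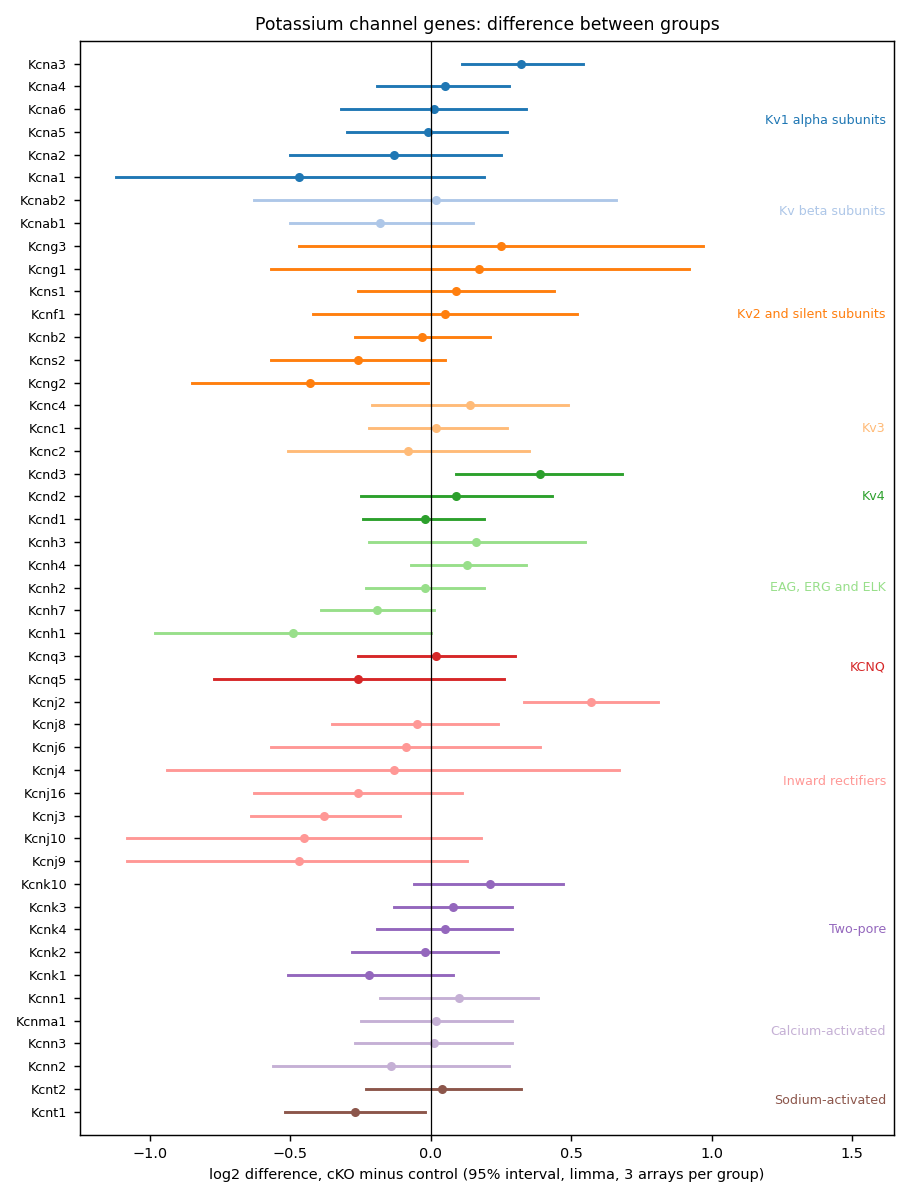
Difference between the arrays labelled cKO and the control arrays (log2, horizontal axis) for each of the 47 potassium channel genes, grouped by family; points are limma estimates and bars are 95% intervals from 3 arrays per group. Most points lie close to 0, Kcnj2 lies farthest to the right at 0.57 and Kcnh1 farthest to the left at -0.49.

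The size of the differences was small. The absolute difference was under 0.1 for 22 members (46.8%, against 50.4% of all genes) and at least 0.3 for 9 (19.1%, against 11.7%). It reached 0.5 for 1 gene, Kcnj2. The 95% interval lay within 0.5 of 0 on either side for 22 members, and within 1 of 0 for 44, with Kcna1, Kcnj9 and Kcnj10 the exceptions. For most members the intervals therefore bound the difference at less than 1 log2 unit, and for 22 of them at less than 0.5. Of 16 members with several probes, 10 had all probes on the same side of 0, and in 0 did the probes differ by more than 0.5.

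For the 4 genes in which the groups did not overlap and the difference was at least 0.3, the sequence just upstream of the start site is shown here, since factors that start their transcription bind in this stretch. The genes are Kcnj2, Kcna3 and Kcnd3, which were higher in the arrays labelled cKO, and Kcnj3, which was lower. Each line gives 250 bases, 5′ to 3′ on the gene's strand, from RefSeq (GRCm38.p6), and capitals mark the GC box GGGCGG and the E-box CAGCTG on either strand. The stretches lie at chr11:111065914-111066163, chr3:107035912-107036161, chr3:105451640-105451889 and chr2:55435720-55435969, all on the plus strand.
Kcnj2: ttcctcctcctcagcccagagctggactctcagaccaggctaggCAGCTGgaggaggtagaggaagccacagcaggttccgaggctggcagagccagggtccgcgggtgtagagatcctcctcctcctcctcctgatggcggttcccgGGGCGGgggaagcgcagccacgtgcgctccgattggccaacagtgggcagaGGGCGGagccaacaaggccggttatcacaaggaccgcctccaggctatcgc
Kcna3: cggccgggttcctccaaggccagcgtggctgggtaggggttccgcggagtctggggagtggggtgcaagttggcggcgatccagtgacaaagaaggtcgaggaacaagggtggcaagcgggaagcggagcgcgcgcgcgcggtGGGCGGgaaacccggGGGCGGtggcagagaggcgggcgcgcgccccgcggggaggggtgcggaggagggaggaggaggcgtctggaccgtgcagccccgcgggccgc
Kcnd3: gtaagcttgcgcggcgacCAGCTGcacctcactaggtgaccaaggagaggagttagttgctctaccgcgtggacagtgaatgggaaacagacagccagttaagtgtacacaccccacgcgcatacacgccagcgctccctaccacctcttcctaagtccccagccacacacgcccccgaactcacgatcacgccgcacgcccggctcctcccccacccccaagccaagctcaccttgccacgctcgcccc
Kcnj3: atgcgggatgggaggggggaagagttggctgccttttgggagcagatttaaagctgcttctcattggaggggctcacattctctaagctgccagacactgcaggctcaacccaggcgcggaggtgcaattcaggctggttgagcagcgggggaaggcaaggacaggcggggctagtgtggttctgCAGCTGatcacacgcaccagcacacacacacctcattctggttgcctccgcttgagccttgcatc
The stretches upstream of Kcnj2 and Kcna3 hold 2 GC boxes each, with 65.6% and 74.4% G and C. Those of Kcnd3 and Kcnj3 hold none, with 62.8% and 58.4% G and C, and 1 E-box each. Kcnj2 also holds 1 E-box.

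Over all members, 36 of 47 had a promoter window in the RefSeq table (250 bases before the start to 50 after it), 53 windows in all, and the other 11 are not analysed here. Median G and C content was 62% in the member windows and 52.7% in all 32851 windows. GGGCGG, on either strand, was present in 49.1% of member windows and 35.7% of all windows, and CAGCTG in 32.1% and 16.3%. Some genes have several windows. Counted by gene, GGGCGG was present in 72.2% of the 36 members and 38.2% of all genes, and CAGCTG in 30.6% and 18.3%. TATAAA was present in 5.66% of member windows and 13.6% of all. TAATTA, letters of the kind that homeodomain factors bind, was in 0 member windows and in 5.29% of all windows, and TAATTG was in 1 member window, of Kcnq5, and in 8% of all. The cyclic AMP response element TGACGTCA was in 0 member windows and 1.79% of all. All motifs were searched on both strands, and TAATTA and TAATTG, which share most of their letters, were counted separately. A match describes letters only and marks no bound site.

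Among the Shaker-type subunits, which form low-threshold channels of axons and juxtaparanodes, 3 of 6 were higher and 3 lower, with a median difference of 0.00. Kcna3, best known from lymphocytes and microglia and also present in neurons, read -1.90, -2.0 and -2.02 in control replicates 1 to 3 and -1.55, -1.71 and -1.67 in cKO replicates 1 to 3. Every array labelled cKO was above every control array. The difference was 0.32 (SE 0.09, 95% interval 0.11 to 0.54, limma adjusted p = 0.40), or 1.25-fold, at a probe on chromosome 3, 106840925 to 106840984 (mm9).

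Kcna1, the axonal subunit whose mutation causes episodic ataxia, read 1.15, 1.19 and 0.73 in the controls and 1.11, 0.51 and 0.05 in the arrays labelled cKO. The groups overlapped, and cKO replicate 3 was the lowest of the 6. The difference was -0.47 (SE 0.27, limma adjusted p = 0.84) and came to -0.21 without cKO replicate 3 and -0.74 without cKO replicate 1. Kcna2, the usual partner of Kcna1 in axonal channels, differed by -0.13, and Kcna4, Kcna5 and Kcna6 by 0.05, -0.01 and 0.01. Kcna1, Kcna5 and Kcna6 lie next to each other on chromosome 6, with the probe of Kcna1 103 kb from that of Kcna5 and 71.9 kb from that of Kcna6. Of the beta subunits, which bind Shaker-type channels from the cytoplasm, Kcnab1 read 1.52, 1.56 and 1.50 in the controls and 1.64, 1.20 and 1.22 in the arrays labelled cKO. Replicate 1 of the arrays labelled cKO was above all controls and the other 2 were below them, and the difference was -0.18 (SE 0.14, limma adjusted p = 0.93), or -0.32 to -0.10 with each array left out in turn. Kcnab2 differed by 0.02.

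The 7 members of the Shab type and the silent subunits, which do not form channels alone but modify Shab-type ones, had a median difference of 0.05, with 4 higher and 3 lower. Kcng2, a silent subunit, read 1.44, 1.35 and 0.94 in the controls and 1.0, 0.90 and 0.56 in the arrays labelled cKO. Control replicate 3 lay among the arrays labelled cKO, so the groups overlapped. The difference was -0.43 (SE 0.17, 95% interval -0.85 to -0.01, limma adjusted p = 0.65). A second probe of Kcng2 gave -0.26. The other 6 lay between -0.26 (Kcns2) and 0.25 (Kcng3), with Kcnf1 at 0.05, Kcns1 at 0.09, Kcng1 at 0.17 and Kcnb2, a delayed rectifier subunit of the soma and dendrites, at -0.03.

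Shaw-type subunits give the fast delayed rectifier current that lets parvalbumin interneurons fire at high rates. Kcnc4 read 0.78, 0.86 and 0.70 in the controls and 1.20, 0.89 and 0.67 in the arrays labelled cKO. The groups overlapped, with cKO replicate 1 the highest array, and the difference was 0.14 (SE 0.15, limma adjusted p = 0.97). It came to 0.00 without cKO replicate 1 and 0.26 without cKO replicate 3. Its direction turned when arrays were weighted by their quality (-0.04) and between control replicate 2 and cKO replicate 3, which lie on the same row of the slide (-0.20). Kcnc1 and Kcnc2 differed by 0.02 and -0.08. Further, dimmer probes of Kcnc1 gave -0.10 and -0.18, each with every array labelled cKO below every control.

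Shal-type subunits carry the A-type current that delays the return to firing in pyramidal cell dendrites and in interneurons. Kcnd3 read 1.64, 1.69 and 1.87 in the controls and 2.30, 2.12 and 1.95 in the arrays labelled cKO. The groups did not overlap, though cKO replicate 3 was only just above control replicate 3. The difference was 0.39 (SE 0.12, 95% interval 0.09 to 0.68, limma adjusted p = 0.48), or 1.31-fold, at a probe on chromosome 3, 105476854 to 105476913 (mm9). A second, dimmer probe of Kcnd3 gave 0.37. Kcnd1 and Kcnd2, the main subunit of pyramidal cell dendrites, differed by -0.02 and 0.09.

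**Figure D2:**
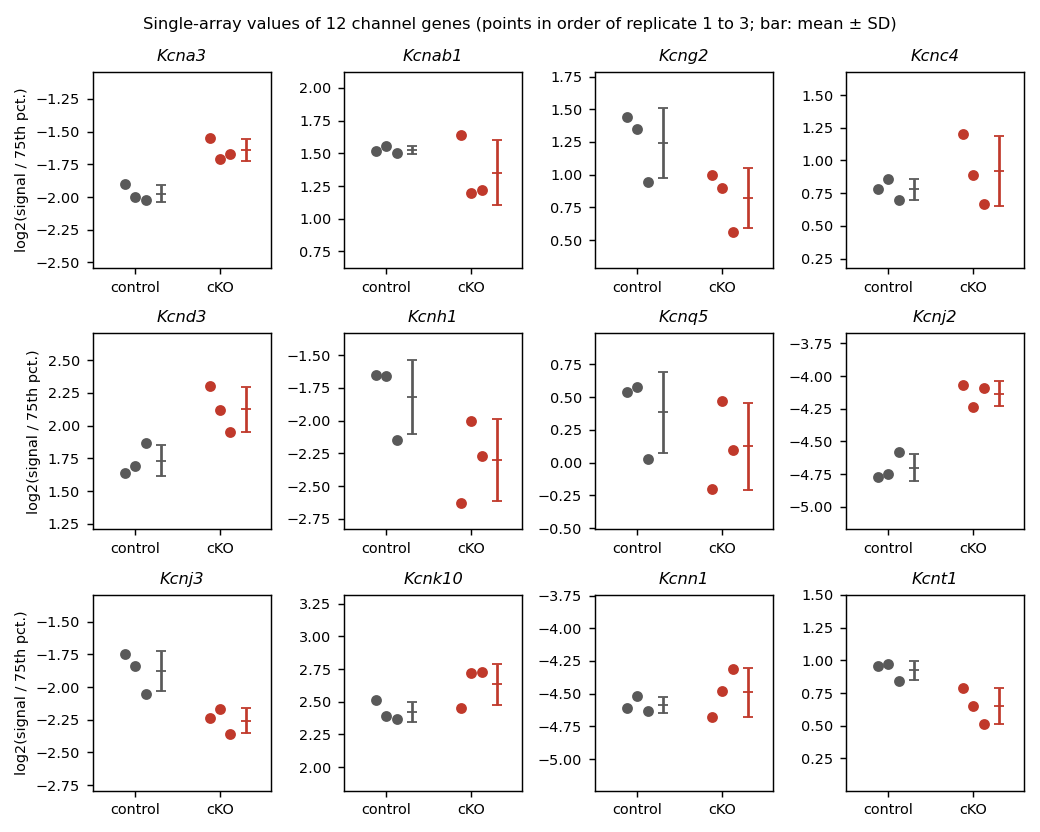
Signal of selected potassium channel genes on each array (log2 relative to that array's 75th percentile, vertical axis), with control and cKO arrays in separate columns; each point is 1 array and the bar beside the points is the mean with its SD (n = 3). Kcnj2, Kcna3 and Kcnd3 have every cKO array above every control array, and Kcnj3 and Kcnt1 have every cKO array below.

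The EAG, ERG and ELK subunits, a voltage-gated branch with roles in resting potential and repolarisation, had 2 members higher and 3 lower and a median of -0.02. Kcnh1, the ether-a-go-go subunit, read -1.65, -1.66 and -2.15 in the controls and -2.63, -2.0 and -2.27 in the arrays labelled cKO. Only cKO replicate 2 lay within the control range, and the other 2 were below it. The difference was -0.49 (SE 0.21, limma adjusted p = 0.66), and leaving out each array in turn gave -0.65 to -0.32.

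Kcnh7, an ERG-type subunit, read -2.63, -2.55 and -2.53 in the controls and -2.78, -2.76 and -2.74 in the arrays labelled cKO. The groups were tight and did not overlap, with a difference of -0.19 (SE 0.08, limma adjusted p = 0.67). Kcnh4, an ELK-type subunit, read 0.52, 0.44 and 0.60 in the controls and 0.64, 0.64 and 0.68 in the arrays labelled cKO. Its groups also did not overlap, and the difference was 0.13 (SE 0.09, limma adjusted p = 0.89). A dimmer second probe of Kcnh4 gave 0.39, also with no overlap between groups. Kcnh2, the ERG subunit of the cardiac repolarising current, differed by -0.02, and Kcnh3 by 0.16.

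The KCNQ subunits form the M-current, which muscarinic receptors suppress and which restrains repetitive firing. Kcnq5 read 0.54, 0.58 and 0.03 in the controls and -0.20, 0.47 and 0.10 in the arrays labelled cKO. The groups overlapped, with cKO replicate 1 the lowest array, and the difference was -0.26 (SE 0.22, limma adjusted p = 0.95). Leaving out each array in turn gave -0.43 to -0.10. A second, dimmer probe of Kcnq5 gave -0.58, with no overlap between groups. Kcnq3 differed by 0.02.

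Of the 8 inward rectifiers, 7 were lower and 1 was higher in the arrays labelled cKO, and their median of -0.20 was the lowest of the families. The higher gene was Kcnj2, the strong inward rectifier of resting potential. It read -4.77, -4.75 and -4.58 in the controls and -4.07, -4.24 and -4.09 in the arrays labelled cKO. Every array labelled cKO was above every control, with a gap between the groups wider than the spread within either. The difference was 0.57 (SE 0.10, 95% interval 0.33 to 0.81, limma adjusted p = 0.18), or 1.48-fold. The probe, on chromosome 11 at 110936203 to 110936262 (mm9), is dim, and with another background correction (normexp) the difference was 0.26, or 0.23 with quantile normalization. Weighting arrays by quality gave 0.62 with a limma adjusted p of 0.023, in a setting that called 435 genes beside 2 in the main fit. On slide rows 1 and 2, which each hold 1 array of both groups, the difference of Kcnj2 was 0.54 and 0.66.

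The subunits of G-protein-gated channels, which open to neurotransmitters that act on inhibitory receptors, lay on the lower side. Kcnj3 read -1.75, -1.84 and -2.05 in the controls and -2.24, -2.17 and -2.36 in the arrays labelled cKO. The groups did not overlap. The difference was -0.38 (SE 0.11, 95% interval -0.64 to -0.11, limma adjusted p = 0.42), or 1.3-fold lower, at chromosome 2, 55447862 to 55447921 (mm9). A second probe of Kcnj3 gave -0.30, also with no overlap between groups. Its channel partners Kcnj9 and Kcnj6 differed by -0.47 (SE 0.25) and -0.09.

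Kcnj10, the main inward rectifier of astrocytes and oligodendrocytes, read 3.53, 4.09 and 3.07 in the controls and 2.83, 3.30 and 3.21 in the arrays labelled cKO. The control arrays spread over a wide range and overlapped the other group. The difference was -0.45 (SE 0.26, limma adjusted p = 0.84), and it came to -0.19 without control replicate 2 and -0.70 without control replicate 3. Kcnj9 lies next to Kcnj10, with 51.8 kb between the probes. It read 1.14, 1.63 and 0.68 in the controls and 0.39, 0.73 and 0.91 in the arrays labelled cKO, a difference of -0.47 (limma adjusted p = 0.81). It too was highest in control replicate 2, and its difference came to -0.23 without that array. Without the arrays with Y-linked signal, the only control left was control replicate 2, the highest array for both genes. Against that single array, Kcnj9 differed by -0.95 and Kcnj10 by -0.98.

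Kcnj16, the partner of Kcnj10 in astrocytes, read 0.66, 0.82 and 0.39 in the controls and 0.49, 0.47 and 0.12 in the arrays labelled cKO. The difference was -0.26 (SE 0.15, limma adjusted p = 0.84). Its probe lies 47 kb from that of Kcnj2, which differed in the other direction. Kcnj8, the pore of the ATP-sensitive channel of pericytes, differed by -0.05, and Abcc9, its regulatory partner, by -0.23. Kcnj4, an inward rectifier of forebrain neurons, differed by -0.13 but ranged over 1.25 log2 units among the controls alone.

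**Figure D3:**
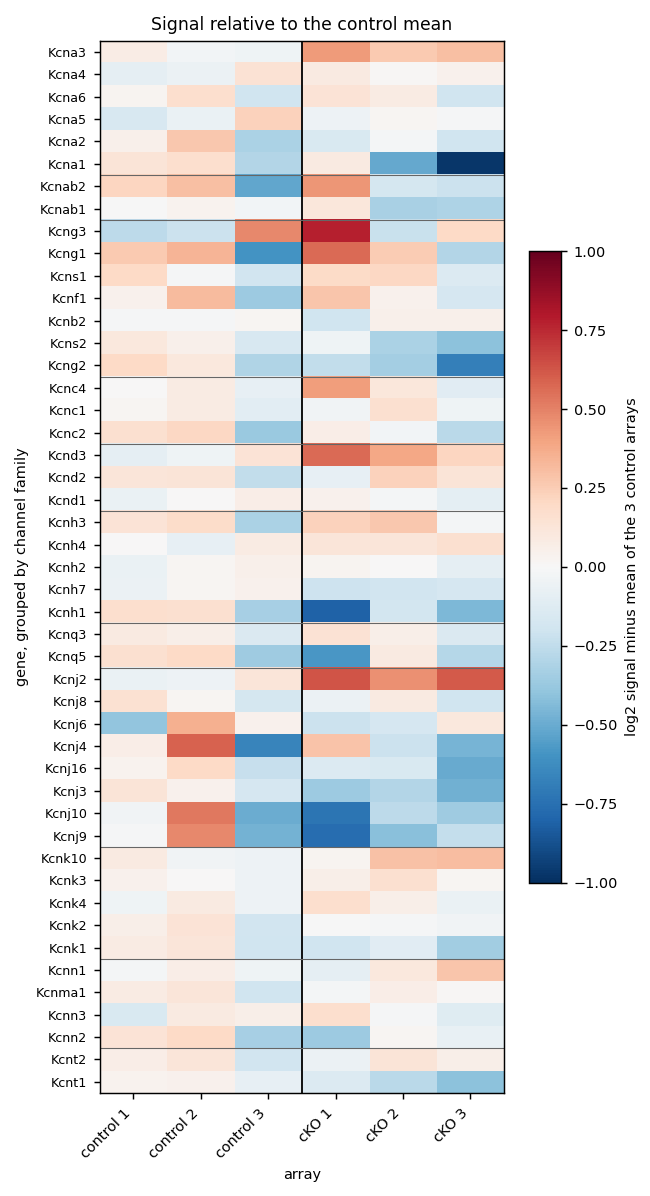
Signal of the 47 potassium channel genes on each array relative to the mean of the 3 control arrays (log2, colour scale), with genes in rows grouped by family and arrays in columns. Control replicate 3 is the lowest of the controls for 35 genes, and the median over the genes lies between -0.17 and 0.09 in every array.

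Tandem-pore channels carry the background leak current. Kcnk10 read 2.51, 2.39 and 2.37 in the controls and 2.45, 2.72 and 2.73 in the arrays labelled cKO. The groups overlapped through cKO replicate 1, and the difference was 0.21 (SE 0.11, limma adjusted p = 0.80). Kcnk1 differed by -0.22, and Kcnk2, Kcnk3 and Kcnk4 by -0.02, 0.08 and 0.05.

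Among the calcium-activated channels, 3 of 4 were higher by small amounts. Kcnn1, a small-conductance subunit of the afterhyperpolarisation, read -4.61, -4.52 and -4.63 in the controls and -4.68, -4.48 and -4.31 in the arrays labelled cKO. The groups overlapped, with a difference of 0.10 (SE 0.12, limma adjusted p = 0.98) that came to between 0.01 and 0.19 with each array left out in turn. This probe is dim, and a second, still dimmer probe of Kcnn1 gave -0.05. Kcnma1, the large-conductance channel that calcium and voltage open together, was covered by 4 probes that lay between -0.07 and 0.07, with 0.02 for the brightest. Kcnn2 and Kcnn3 differed by -0.14 and 0.01.

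Sodium-activated channels give a slow afterhyperpolarisation. Kcnt1 read 0.96, 0.97 and 0.84 in the controls and 0.79, 0.65 and 0.51 in the arrays labelled cKO. Every array labelled cKO was below every control. The difference was -0.27 (SE 0.11, 95% interval -0.52 to -0.02, limma adjusted p = 0.61), or 1.21-fold lower. Kcnt2 differed by 0.04.

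The arrays differed from each other across these genes in a way that did not follow the groups. Control replicate 3 was the lowest of the 3 controls for 35 of 47 members (74.5%), against 30.9% of all genes. Member medians relative to the control mean were 0.05, 0.09 and -0.17 in the controls and 0.03, 0.01 and -0.12 in the arrays labelled cKO. Replicate 3 of each group was therefore the low array, a gap between arrays of the same group that exceeded the median difference between groups. The typical within-group SD of a member was 0.15, next to 0.16 for all genes.

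Genes of the same kind that are outside the 47 were taken from lists of other channel subunits. Of 32 other pore-forming subunits, 12 were higher and 20 lower, with a median of -0.08, and by limma 0 passed an adjusted p of 0.05, with 0 higher and 3 lower at an unadjusted p of 0.05. Of 17 tested auxiliary subunits, 7 were higher and 10 lower, with a median of -0.04. By limma 0 passed, with 1 higher and 2 lower at an unadjusted p of 0.05. Over all genes tested, 3.21% were higher and 4.34% lower at that unadjusted p, and both lists rest on few genes.

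The 3 largest differences among these genes were lower in the arrays labelled cKO. Kcnh5, an ether-a-go-go subunit related to Kcnh1, read 1.07, 0.90 and 0.55 in the controls and -0.75, 0.22 and -0.27 in the arrays labelled cKO. The difference was -1.11 (SE 0.26, limma adjusted p = 0.31), or 2.16-fold lower. Kcnab3, a beta subunit, read -0.07, -0.04 and -0.39 in the controls and -1.69, -0.96 and -1.06 in the arrays labelled cKO, a difference of -1.07 (SE 0.21, limma adjusted p = 0.24). In both genes every array labelled cKO was below every control.

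Kcne1l, a small accessory subunit, read 1.54, 1.30 and 2.07 in the controls and 0.83, 0.70 and 0.78 in the arrays labelled cKO. The groups did not overlap, and the difference was -0.87 (SE 0.19, limma adjusted p = 0.29). It came to -0.55 when all its probes were averaged. Kcnk6, a tandem-pore channel, differed by -0.84 (SE 0.24, limma adjusted p = 0.41). Kcnk13, a tandem-pore channel of microglia, differed by -0.26 (SE 0.09, limma adjusted p = 0.57), and Kcne4, an accessory subunit, by 0.33 (SE 0.12, limma adjusted p = 0.55). The value for Kcne4 was 0.17 when its probes were averaged, and 0.18 or 0.15 with normexp background correction. The 3 genes Kcnh5, Kcnab3 and Kcnk6 passed with weighted arrays, at limma adjusted p-values of 0.042, 0.031 and 0.037. That setting called 435 genes in all, beside 2 in the main fit, so passing there does not single these genes out.

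**Figure D4:**
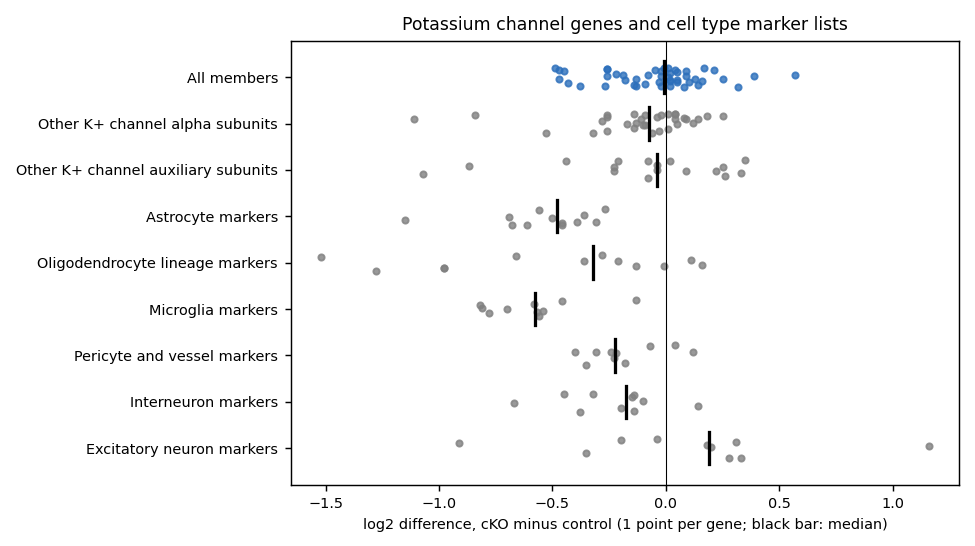
Difference between the arrays labelled cKO and the control arrays (log2, horizontal axis) for the potassium channel genes, for other channel subunits and for marker lists of 6 cell types; each point is a gene and the black bar is the median of the list. The channel genes are spread around 0, while the medians for astrocyte and microglia markers lie at -0.48 and -0.58.

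Most of the listed markers of glia, vessels and interneurons were lower in the arrays labelled cKO. Whether this plays a part in the values of the members was not tested. All 12 astrocyte markers were lower, with a median of -0.48, and their summed signal was 142 to 171 in the controls and 101 to 120 in the arrays labelled cKO. By limma 0 of them passed an adjusted p of 0.05. All 12 had an unadjusted p under 0.05, against 4.34% of all genes on the lower side. The marker lists were chosen with earlier results of these data known, and genes of a list are not independent replicates. Their shares beside the background are therefore descriptions and give no independent support. Kcnj10 and Kcnj16 lay on the same side as these markers, and the part of the markers in that was not tested. All 10 microglia markers were lower, with a median of -0.58 and a summed signal of 70.7 to 73.5 in the controls and 58.1 to 61 in the arrays labelled cKO. By limma 0 of them passed an adjusted p of 0.05, the smallest being 0.28. Of these markers, 8 had an unadjusted p under 0.05, against 4.34% of all genes on the lower side. In 5 the groups did not overlap, against 6.19% of all genes on the lower side. The microglia markers lay on the same side as Kcnk13 and opposite to Kcna3, and their part in either was not tested.

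Of 12 oligodendrocyte lineage markers, 10 were lower, with a median of -0.32 and a summed signal of 151 to 188 and 125 to 145. Of 10 pericyte and vessel markers, 8 were lower, with a median of -0.22 and a summed signal of 25.2 to 32 and 23.5 to 28.1. Interneuron markers were lower in 9 of 10, with a median of -0.18 and a summed signal of 71.6 to 74.7 and 56.7 to 69.9. Excitatory neuron markers were higher in 6 of 10, with a median of 0.19 and a summed signal of 47.6 to 54.2 and 53.2 to 60.2. No marker of these 4 lists passed an adjusted p of 0.05 by limma. At an unadjusted p of 0.05 they had 6, 3, 2 and 2 lower and 0, 0, 0 and 3 higher. Of all genes, 4.34% were lower and 3.21% higher at that level. No defining marker of any list was at or below background on any array.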

How the data were processed

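Total RNA of 6 samples was hybridised to 1-colour Agilent arrays. The intensity used is the processed signal that the authors deposited in the scanner files, which per the file headers was background-subtracted and spatially detrended by Feature Extraction 10.5.1.1, with probe coordinates on mm9. The authors also deposited a table of log2 values, which served as an alternative. It matched log2 scanner values after quantile normalization and centring of each probe on its median over the arrays (median absolute difference 0.000161), and its column medians were -0.0064 to 0.00645.

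Control spots and outlier spots were left out. Signals were taken to log2 and the 75th percentile of each array was subtracted. Spots of a probe were averaged, probes well above background on at least 3 of 6 arrays were kept (50030), and a gene was represented by its probe with the highest mean. Gene names were updated through RefSeq tables (GRCm38.p6): 28331 probes were matched through their accession, 428 through a further accession, 2034 by symbol and 162 by synonym, and 24726 kept the file's name. limma 3.58.1 (lmFit, eBayes, R 4.3.3) compared 3 with 3 arrays with two-sided tests, and p-values were adjusted by Benjamini-Hochberg across every gene tested. The method was tested on simulated data with independent noise and changes larger than any member difference here. That test does not show how well differences of the sizes seen in the members would be found.

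Values by array are given for members with an unadjusted p under 0.05, for members whose groups did not overlap with a difference of at least 0.3, and for the member with the smallest p of each family. Of other channel genes, the 6 with the smallest p are named. Kcna1, Kcnh4, Kcnh7, Kcnj9, Kcnj10 and Kcnj16 were added after their values were seen. The members and lists were chosen with earlier results of these data known. The main fit did not pair arrays by replicate number.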

Additional observations from a re-analysis of the deposited data

How the results depend on the processing

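No member passed an adjusted p of 0.05 by limma under any alternative except array weights, which called 1 (Kcnj2). The number of all genes called ranged from 0 (no filter) to 435 (array weights) beside 2 as reported. Members at an unadjusted p of 0.05 ranged from 3 to 21 (array weights) beside 6. The share of all genes at that p was not counted for each setting. The median member difference was -0.012 and moved beyond the spread of the array medians only within slide row 2 (-0.200). Of 529 gene values under alternatives, 2 changed sign, both of Kcnc4: -0.04 with array weights and -0.20 within slide row 2. The sign was kept over all 23 settings by 22 of 47 members. The replicate block, the intensity trend in eBayes and the filters on dim probes cannot change a member's estimate here. Signs kept under those settings carry no information. With the replicate number as a block, 0 members were called. The median stayed at -0.012, which the balanced design fixes in advance. Deviations of arrays with the same number correlated at -0.20, 0.08 and 0.17. With 3 arrays per group, these values cannot decide whether the numbers pair the arrays. Dim probes such as that of Kcnj2 depend most on the background correction.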
